A study of Mus musculus with 6 samples.

Results

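The 9 genes described here are Trem2, Apoe, Lpl, Fabp4, Fabp5, Gpnmb, Spp1, Cd9 and Lgals3, a set that marks lipid-associated macrophages. They were chosen by symbol from the 32285 genes of the count tables, and each symbol matched 1 gene. Transcripts were counted by droplet-based 3′-end single-cell RNA sequencing of pancreatic tumours, with unique molecular identifiers (UMIs) that count each captured transcript once. The tumours were grown for 4 weeks in the pancreas of C57BL/6 mice, 6 to 8 weeks old, from KPC cells, a pancreatic cancer line of mice. The injected cells carried an empty vector (OE-Vector) or a construct for mouse Mlkl (OE-MLKL), the pseudokinase that breaks the plasma membrane in necroptosis. Hosts were of 1 strain and the cells of 1 line in both groups. The labels name 3 samples per group. Count matrices of 4 libraries were analysed, OE-Vector 1 and OE-MLKL 1, 2 and 3, and those of OE-Vector 2 and 3 were not analysed here. Every comparison between labels therefore set 1 library against 3, with p-values from the spread among the OE-MLKL libraries. Between gates, p-values rest on the spread of the gate differences over libraries.

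Lipid-associated macrophages were described in obese adipose tissue and resemble macrophages of atherosclerotic plaques, injured brain, fatty liver and tumours that take up and break down lipid. TREM2, the receptor of the set, binds lipids and lipoproteins and signals through the adaptor TYROBP. APOE carries lipid out of the cell, LPL hydrolyses the triglycerides of lipoproteins, and FABP4 and FABP5 bind fatty acids in the cytosol. GPNMB is a glycoprotein of lysosomes and the cell membrane, SPP1 (osteopontin) is a secreted ligand of integrins and CD44, CD9 is a tetraspanin, and LGALS3 (galectin-3) is a lectin of the cell surface and of damaged lysosomes.

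In the GENCODE annotation of GRCm38, Trem2 lies on the plus strand of chromosome 17 from 48346401 to 48354147 and Gpnmb on the plus strand of chromosome 6 from 49036546 to 49070929, and no other annotated gene overlaps them. Gm42793 overlaps Spp1 on the same strand, and Gm28809 and Gm26728 overlap Cd9 on the opposite strand, so reads of these could not be told apart from Spp1 or, without strand, from Cd9. No transcript of another gene matched the last 300 bases of any of the 9 genes at 95% identity over 90 bases. RefSeq promoters (GRCm38.p6, from 250 bases before a start to 50 after it) were listed for 6 of the 9 genes, but not for Lpl, Fabp4 and Fabp5. The promoters of Gpnmb and Trem2 are shown because Gpnmb was called higher in Arg1-positive macrophages and Trem2 was not. Both windows hold the pattern TGANTCA, in capitals, a loose form of the AP-1 motif that takes any base at its centre. They are written 5′ to 3′ from the plus strand, at chr6:49036268-49036567 for Gpnmb and chr17:48346151-48346450 for Trem2.
Gpnmb: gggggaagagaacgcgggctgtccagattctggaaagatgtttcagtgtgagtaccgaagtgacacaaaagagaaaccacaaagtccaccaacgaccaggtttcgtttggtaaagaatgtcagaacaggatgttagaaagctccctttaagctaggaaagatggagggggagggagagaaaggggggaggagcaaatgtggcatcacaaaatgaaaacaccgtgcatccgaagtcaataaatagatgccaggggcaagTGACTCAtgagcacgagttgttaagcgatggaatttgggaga
Trem2: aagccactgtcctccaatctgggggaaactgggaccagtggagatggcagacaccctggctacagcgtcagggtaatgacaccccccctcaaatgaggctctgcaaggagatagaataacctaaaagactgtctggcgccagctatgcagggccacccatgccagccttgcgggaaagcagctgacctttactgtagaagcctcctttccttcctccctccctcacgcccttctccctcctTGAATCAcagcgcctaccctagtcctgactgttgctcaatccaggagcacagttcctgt
The pattern began 8 bases after the RefSeq start of Gpnmb, as TGACTCA, and 9 bases before that of Trem2, as TGAATCA. Searched on both strands, TGANTCA was present in 7.81% of all 32851 windows and in 2 of the 9 windows of these genes. The E-box CACGTG, bound by MITF and the TFE factors, was present in 7.15% of all windows and in 0 of the 9. These matches describe letters in a window and not a bound site.

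Cells were assigned to gates by marker genes, none of which is among the 9 genes. Macrophages were gated on markers that include C1qa, C1qb, C1qc, Csf1r, Adgre1, Mrc1, Ms4a7 and Cd68, and were Arg1-positive if they held at least 1 UMI of Arg1, the arginase of alternatively activated macrophages. Arg1-positive macrophages numbered 1382 in OE-Vector 1, against 1273, 1635 and 1674 in OE-MLKL 1, 2 and 3, and Arg1-negative macrophages 436, 1203, 639 and 994. Monocytes numbered 88, 35, 46 and 15 cells, neutrophils 4994 to 7538 and cancer cells 2502 to 6067. T or NK cells, 440 to 858 per library, served as a background for macrophage genes such as Trem2 and Gpnmb. They were no clean background for Fabp5, which stood at 0.398 to 2.69 times C1qa in them and 0.0820 to 0.182 times in near-empty barcodes. Nor were they for Lgals3, at 0.929 to 7.67 times against 0.284 to 1.05 times. Cd9 was above near-empty barcodes in each library too, at 0.264 to 1.71 times against 0.221 to 0.662 times, with overlap of the ranges. Median depth was 4717 to 8976.5 UMIs per Arg1-positive macrophage, 3570 to 6590 per Arg1-negative macrophage, 720 to 1347 per neutrophil and 2652 to 3691.5 per T or NK cell. Levels are given as UMIs of a gene per 1000000 UMIs of all cells in a gate (CPM), 1 value per library, and a pair of genes is not compared by level.

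The libraries held 150591289 to 169978362 UMIs and 13489 to 18808 cells after filters, of which 12.3% to 17.8% fell into no gate, and pairs of libraries shared 73 to 134 cell barcodes. Mlkl in cancer cells was 16.4 CPM in OE-Vector 1, and OE-MLKL 1, 2 and 3 had 8.88, 13.0 and 19.7 CPM. The label was thus not matched by more Mlkl in these counts, and it was not established whether transcripts of the construct are counted at their 3′ end. OE-MLKL and OE-Vector below therefore mean the libraries labelled so. Free RNA was read from barcodes of at most 100 UMIs, which contained Apoe at 4340 to 7011 CPM, Spp1 at 897 to 1635 CPM, Cd9 at 243 to 355 CPM and Trem2 at 69.9 to 132 CPM.

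Trem2 and Apoe were the genes of the set most closely tied to the macrophage gates. Trem2 in Arg1-positive macrophages was 514 CPM in OE-Vector 1, and OE-MLKL 1, 2 and 3 had 453, 583 and 501 CPM, and in Arg1-negative macrophages 394, 461, 620 and 464 CPM. The gates overlapped, and Arg1-positive cells were the higher in 2 of 4 libraries. Trem2 was lower in monocytes, at 97.2 to 186 CPM, and lower again in neutrophils, at 9.43 to 33.3 CPM, with no overlap between these steps. Cancer cells, at 4.34 to 11.8 CPM, and T or NK cells, at 3.23 to 18.9 CPM, did not differ beyond their spread. The ratio of Trem2 to C1qa was 0.106 to 0.121 in Arg1-positive macrophages, 0.116 to 0.148 in neutrophils, 0.117 to 0.174 in cancer cells, 0.124 to 0.134 in T or NK cells and 0.105 to 0.143 in near-empty barcodes. In Arg1-negative macrophages it was 0.0747 to 0.114, below every value in cancer cells and T or NK cells. Neutrophils, cancer cells and T or NK cells each overlapped near-empty barcodes in this ratio. In monocytes the ratio was 1.44 to 2.00, but the gate itself limits C1q genes. Macrophage markers, C1q genes among them, were required in the macrophage gates and limited in neutrophils, cancer cells and T or NK cells. Every ratio to C1qa in a gate given here thus depends in part on how the gate was set.

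**Figure D1:**
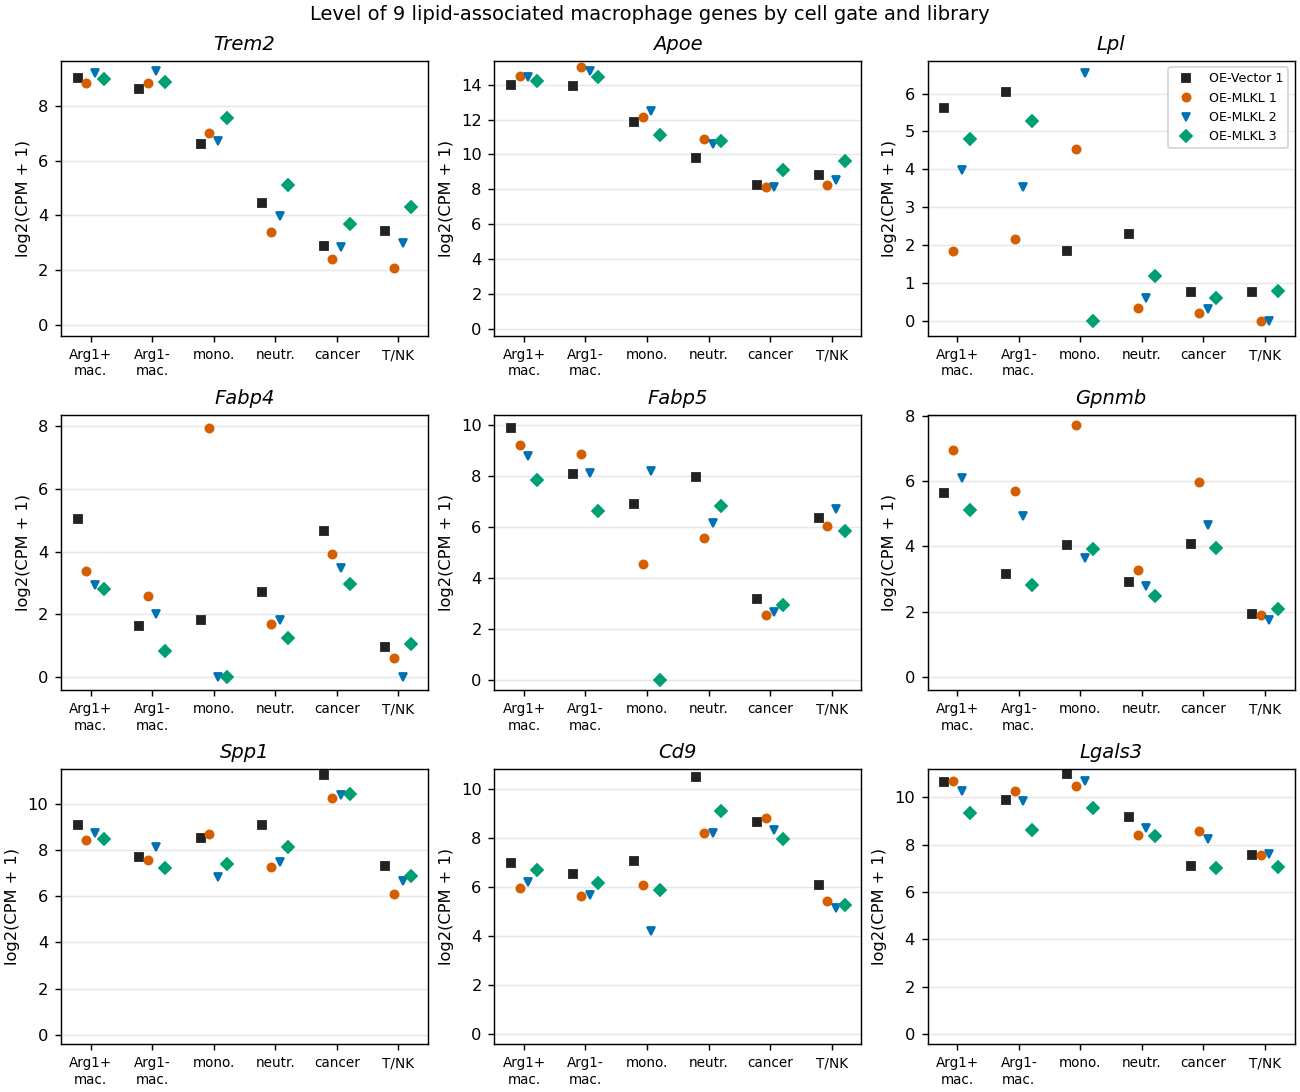
Each panel plots the level of 1 gene, as log2(CPM + 1), in 6 cell gates, with 1 point per library. Trem2 and Apoe are highest in both macrophage gates of all 4 libraries, Spp1 is highest in cancer cells, and Cd9 is highest in neutrophils or cancer cells.

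Apoe was found in every gate. It was 16517 CPM in OE-Vector 1, and OE-MLKL 1, 2 and 3 had 22959, 22282 and 19448 CPM in Arg1-positive macrophages, and 15919, 33189, 27992 and 22325 CPM in Arg1-negative macrophages. Monocytes held 2226 to 5783 CPM, neutrophils 895 to 1905 CPM and T or NK cells 306 to 803 CPM, and these 3 gates did not overlap. Neutrophil Apoe stood at 6.13 to 29.9 times C1qa, against 5.24 to 10.1 times in near-empty barcodes and 3.39 to 6.16 times in Arg1-positive macrophages. Neutrophils were above near-empty barcodes of the same library in OE-Vector 1 and OE-MLKL 1 and 2. In OE-MLKL 3 they were below them, at 6.13 against 6.36 times. Neutrophils, T or NK cells, at 5.66 to 12.6 times, and cancer cells, at 5.50 to 11.4 times, each overlapped near-empty barcodes in this ratio. The part of free RNA in Apoe of neutrophils, cancer cells and T or NK cells was not tested.

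Against the other gates, tested with edgeR's quasi-likelihood test on sums per library and gate with the library as a term, the set did not move as 1 block. The mean of both macrophage gates exceeded neutrophils in 6 of 9 genes, against 35.9% of all genes tested, and was below them in 1, against 38.4%. Trem2 was higher by 4.505 ± 0.27 (log2 fold change ± SE, adjusted p = 3.6e-11), Lpl by 3.81 ± 0.54, Apoe by 3.69 ± 0.29, Gpnmb by 2.18 ± 0.32, Fabp5 by 1.48 ± 0.47 and Lgals3 by 0.99 ± 0.25. Cd9 was the gene higher in neutrophils, with macrophages at -3.09 ± 0.26 (adjusted p = 3.5e-09). Cd9 in neutrophils was 1420 CPM in OE-Vector 1, and OE-MLKL 1, 2 and 3 had 287, 291 and 543 CPM, all above the 48.0 to 125 CPM of the macrophage gates. Spp1 and Fabp4 were not called, at -0.11 ± 0.27 and 0.74 ± 0.64.

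Against cancer cells, 6 of 9 genes were called higher in macrophages, where 34.8% of all genes were, and 2 lower, where 38.6% were. Trem2 differed by 6.44 ± 0.30, Apoe by 6.19 ± 0.33, Fabp5 by 6.11 ± 0.60, Lpl by 6.07 ± 0.49, Lgals3 by 2.36 ± 0.27 and Gpnmb by 0.68 ± 0.25 on the log2 scale, with adjusted p from 1.6e-13 for Trem2 to 0.019 for Gpnmb. The call of Gpnmb was lost in 4 of 13 alternatives, with DESeq2 (adjusted p = 0.16), with no library term (adjusted p = 0.33), with scaling by library size (adjusted p = 0.091) and without OE-MLKL 2 (adjusted p = 0.13). It is the mean of unlike gates, since Gpnmb was above cancer cells in Arg1-positive macrophages of 4 of 4 libraries and below them in Arg1-negative macrophages of 3 of 4. Spp1, at -2.16 ± 0.25, and Cd9, at -2.07 ± 0.26, were higher in cancer cells. Spp1 in cancer cells was 2473 CPM in OE-Vector 1, and OE-MLKL 1, 2 and 3 had 1246, 1374 and 1385 CPM, above every macrophage value. The secreted protein osteopontin thus had its highest transcript level in the tumour cells. Fabp4 was not called, at -1.02 ± 0.47 with adjusted p = 0.058, although 7 of 13 alternatives called it lower in macrophages. Arg1-positive macrophages of OE-Vector 1 were above cancer cells, at 31.9 against 24.1 CPM.

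Against monocytes, 2 of 9 genes were called higher in macrophages, where 5.84% of all genes were, and 1 lower, where 4.17% were. Apoe was higher by 2.58 ± 0.27 and Trem2 by 2.20 ± 0.29 (adjusted p = 3.4e-06 and 4.0e-05). Lgals3 was not called, at -0.34 ± 0.25. In monocytes it was 2028 CPM in OE-Vector 1, and OE-MLKL 1, 2 and 3 had 1434, 1639 and 756 CPM. Arg1-positive macrophages were below monocytes in 3 of 4 libraries and Arg1-negative macrophages in 4 of 4, with log2 ratios of -1.10 to -0.21 for the latter. Fabp4 was called lower in macrophages, at -3.01 ± 0.84 (adjusted p = 0.026), and this rested on OE-MLKL 1, where 44 UMIs came from 4 of 35 monocytes and 20 of them from 1 cell. Without that library the difference was 2.34 with adjusted p = 0.26. Gpnmb in the same monocytes had 38 UMIs, 23 of them from 1 cell. Fabp5 was not called, at 1.88 ± 0.60 with adjusted p = 0.054, although 6 of 13 alternatives called it higher, with log2 fold changes of 1.37 to 2.94 and adjusted p of 0.0036 to 0.17 over the 13. In OE-MLKL 2 monocytes 33 of 52 Fabp5 UMIs came from 1 cell, and without that library the difference was 2.94 with adjusted p = 0.024. Spp1, at 0.30 ± 0.32, was called in 1 of 13. Cd9, at 0.30 ± 0.42, Lpl, at -0.04 ± 0.82, and Gpnmb, at -0.38 ± 0.46, were called in 0 of 13.

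Within macrophages, 6 of the 9 genes were higher in Arg1-positive than in Arg1-negative cells of every library, against 9.93% of all genes, and 0 were lower in every library, against 15.5%. Gpnmb was 49.5 CPM in OE-Vector 1, and OE-MLKL 1, 2 and 3 had 123, 67.9 and 33.5 CPM in Arg1-positive cells, and 7.92, 50.6, 29.4 and 6.06 CPM in Arg1-negative cells. The folds were 6.25 in OE-Vector 1, and OE-MLKL 1, 2 and 3 had 2.44, 2.31 and 5.53, although the ranges over libraries overlapped. Spp1 was 552 CPM in OE-Vector 1, and OE-MLKL 1, 2 and 3 had 348, 433 and 358 CPM in Arg1-positive cells, and 211, 188, 279 and 151 CPM in Arg1-negative cells, with no overlap. Fabp4 was 31.9 CPM in OE-Vector 1, and OE-MLKL 1, 2 and 3 had 9.42, 6.72 and 6.06 CPM in Arg1-positive cells. Arg1-negative cells had 0.777 to 4.99 CPM, again without overlap. Fabp4 was sparse, found in 0.421% to 1.61% of Arg1-positive and 0% to 0.244% of Arg1-negative cells thinned to 1000 UMIs. Fabp5 was 1.29 to 3.55-fold, Lgals3 1.34 to 1.71-fold and Cd9 1.27 to 1.46-fold higher in Arg1-positive cells of the 4 libraries.

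The remaining genes did not follow. Apoe was 0.692, 0.796 and 0.871 times the Arg1-negative level in OE-MLKL 1, 2 and 3 and 1.04 times in OE-Vector 1. Trem2 was 0.940 to 1.31 times and Lpl 0.714 to 1.39 times the Arg1-negative level. The macrophage markers C1qa and Csf1r were lower in Arg1-positive cells of all 4 libraries, at 0.883 to 0.924 and 0.750 to 0.888 times. Krt8, the keratin of the tumour cells, was 1.003 to 1.25 times the Arg1-negative level, and Arg1-positive cells were deeper in every library.

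**Figure D2:**
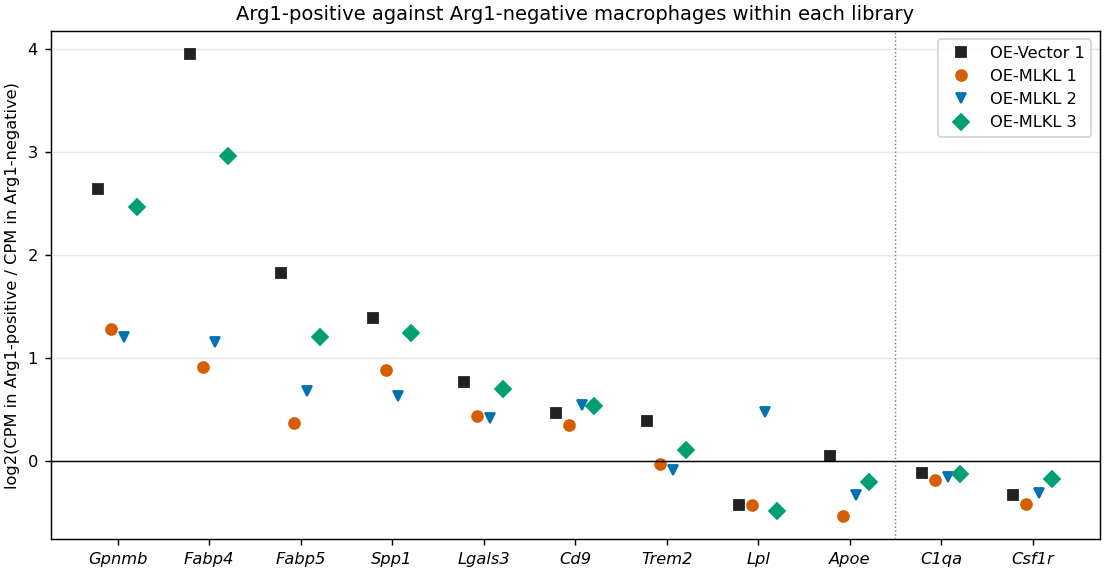
The plot gives log2 of the CPM in Arg1-positive over that in Arg1-negative macrophages for each gene, with 1 point per library and the markers C1qa and Csf1r at the right of the dotted line. Gpnmb, Fabp4, Fabp5, Spp1, Lgals3 and Cd9 lie above 0 in all 4 libraries, and C1qa and Csf1r lie below 0 in all 4.

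In the fit over all 5 gates, 1 of 9 genes was called higher in Arg1-positive macrophages, against 0.418% of all genes, and 0 lower, against 0.0456%. Without adjustment, 4 genes had p under 0.05, all of them higher, against 3.28% of all genes. The called gene was Gpnmb, at 1.80 ± 0.31 (log2 fold change ± SE, adjusted p = 0.0079). The call was lost without OE-MLKL 3 (1.65 ± 0.37, adjusted p = 0.13) and without the library term (1.58 ± 0.70, adjusted p = 1). Fabp4, at 2.31 ± 0.70, Spp1, at 1.02 ± 0.31, Fabp5, at 0.94 ± 0.50, Lgals3, at 0.62 ± 0.28, and Cd9, at 0.52 ± 0.31, were not called there. That fit takes its spread from all gates, monocytes and cancer cells included.

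A fit of both macrophage gates alone, chosen after the data had been seen, called 6 of 9 genes higher, against 4.36% of all genes, and 0 lower, against 3.22%. These were Spp1 (1.07 ± 0.10, adjusted p = 6.1e-06), Gpnmb (1.69 ± 0.16, adjusted p = 1.1e-05), Lgals3 (0.61 ± 0.07), Cd9 (0.51 ± 0.06), Fabp4 (2.24 ± 0.34) and Fabp5 (1.04 ± 0.16). Apoe, at -0.22 ± 0.08, Lpl, at -0.30 ± 0.12, and Trem2, at 0.13 ± 0.07, were not called, with adjusted p of 0.11, 0.16 and 0.38. Trem2, the receptor of the set, was thus not among the genes called.

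To read Arg1 at equal depth, macrophages were thinned to 1000 UMIs each and divided by 0, 1, or 2 or more Arg1 UMIs. Gpnmb was higher at each step in 4 of 4 libraries, from 17.4 to 45.3 to 65.4 CPM in OE-Vector 1 and from 12.5 to 36.8 to 59.1 CPM in OE-MLKL 3. Spp1 and Lgals3 were higher at each step in 4 of 4 libraries as well, reaching 2.04 to 2.74 and 1.52 to 2.42 times the level at 0 Arg1 UMIs. Apoe was lower at each step in 4 of 4 libraries, reaching 0.485 to 0.797 times. Fabp4, Fabp5 and Cd9 were higher at each step in 2 of 4 libraries and Trem2 in 1 of 4, and Lpl was higher at each step in 1 and lower in 2. These orders were not tested, and the share of all genes with such an order was not counted.

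**Figure D3:**
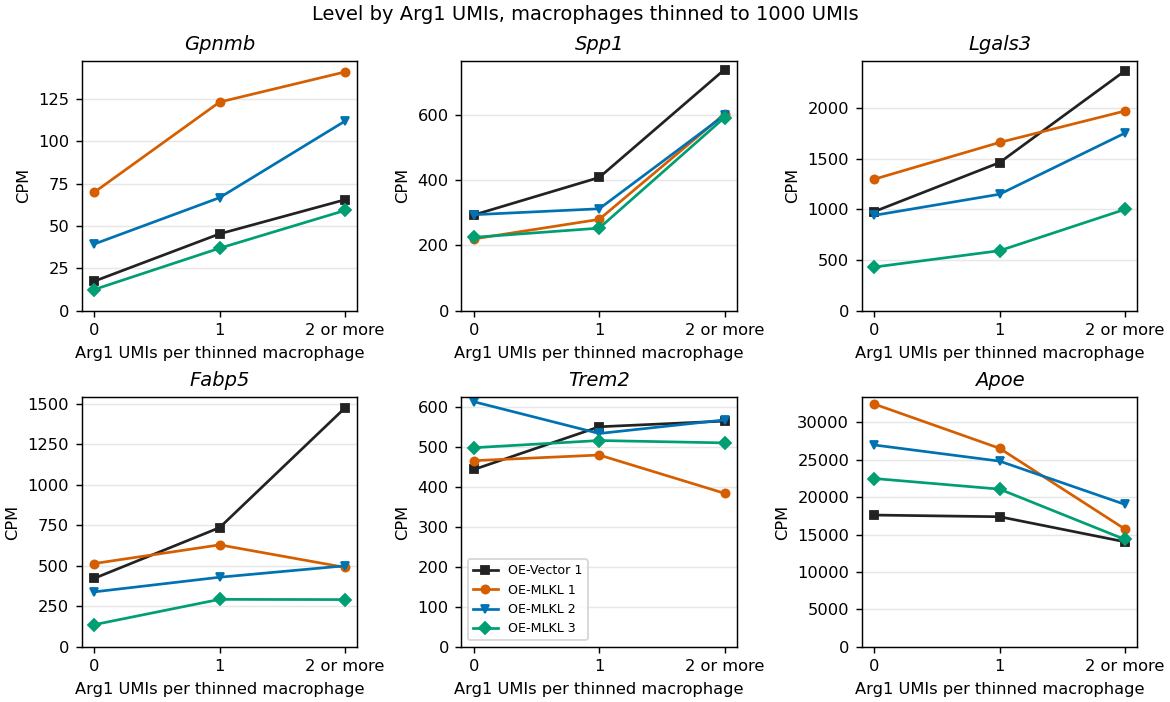
Each panel plots the CPM of 1 gene in macrophages thinned to 1000 UMIs against the number of Arg1 UMIs of the cell, with 1 line per library. Gpnmb, Spp1 and Lgals3 are higher in each following bin in all 4 libraries, Apoe is lower in each in all 4, and Trem2 has no common direction.

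The share of cells with at least 1 UMI was compared at equal depth, after thinning to 1000 UMIs and leaving out shallower cells, which kept nearly every macrophage (1368 of 1382 Arg1-positive cells in OE-Vector 1) but only the deeper neutrophils, 4259 of 5819 in OE-Vector 1 and 932 of 4994, 1197 of 7538 and 5454 of 6095 in OE-MLKL 1, 2 and 3. Trem2 was found in 38.8% of Arg1-positive macrophages in OE-Vector 1 (exact 95% interval 36.2 to 41.5), and OE-MLKL 1, 2 and 3 had 33.4%, 41.5% and 39.6%. Among Arg1-negative macrophages the shares were 32.8%, 34.9%, 42.1% and 37.0%, and among T or NK cells 0.705%, 0.234%, 0.621% and 2.84%. Trem2 was thus common to both macrophage gates and rare in the background. Without thinning it was found in 81.5% to 92.4% of Arg1-positive macrophages, 74.1% to 86.0% of Arg1-negative macrophages and 1.36% to 8.19% of T or NK cells. Gpnmb was found in 3.36%, 9.61%, 5.04% and 2.71% of Arg1-positive and 0.489%, 5.25%, 2.88% and 0.517% of Arg1-negative macrophages, and in 0% to 0.631% of T or NK cells. In OE-MLKL 3 it was found in 5 of 967 Arg1-negative macrophages and 4 of 634 T or NK cells, a difference not detectable at this depth. In OE-Vector 1 the intervals of these gates also overlapped, and these are the 2 libraries with the largest folds between the macrophage gates, 6.25 and 5.53. Without thinning, at unequal depth, Gpnmb was found in 3.32% to 12.6% of Arg1-negative macrophages and 0.798% to 1.42% of T or NK cells, and the Arg1-negative share was the higher in 4 of 4 libraries.

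Spp1 had a high background at the same depth. It was found in 18.3% to 27.1% of Arg1-positive and 13.3% to 21.03% of Arg1-negative macrophages, against 7.26% to 15.98% of T or NK cells. The interval lay above that of T or NK cells in 4 of 4 libraries for Arg1-positive and in 2 of 4 for Arg1-negative macrophages. Cd9 was found in 5.36% to 11.5% of Arg1-positive and 3.90% to 7.82% of Arg1-negative macrophages. It was found in 2.90% to 6.70% of T or NK cells and in 22.9% to 66.0% of neutrophils. The Cd9 interval lay above that of T or NK cells in 3 of 4 libraries for Arg1-positive and in 0 of 4 for Arg1-negative macrophages. Lpl, in 0.394% to 2.56% of Arg1-positive macrophages, and Fabp4, in 0.421% to 1.61%, were rare at this depth. The Fabp4 interval lay above that of T or NK cells in 1 of 4 libraries for Arg1-positive and in 0 of 4 for Arg1-negative macrophages. In OE-MLKL 2, where 0 of 483 T or NK cells held Gpnmb, the count allows a share of up to 0.621% of cells with a UMI at this depth, and 4 of 501 held one without thinning. Intervals and limits cover counting error only.

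**Figure D4:**
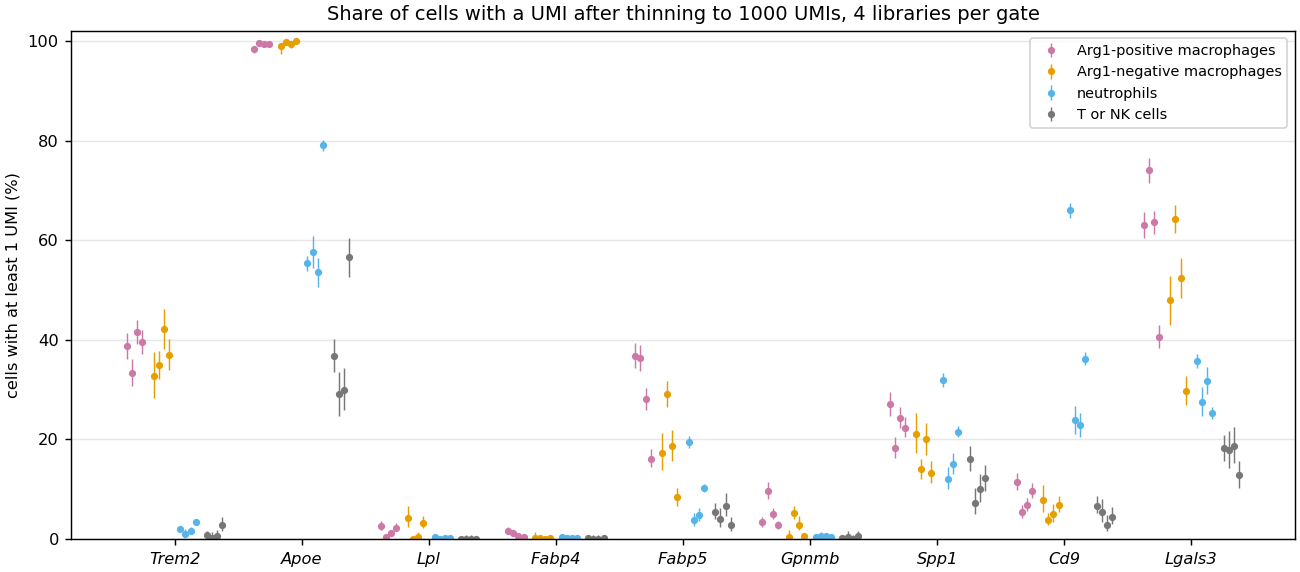
The plot gives the percent of cells with at least 1 UMI of each gene after thinning to 1000 UMIs, in 4 gates with 1 point per library and exact 95% binomial intervals as bars. Apoe is found in 98.4% to 100% of macrophages, Trem2 in 32.8% to 42.1%, and Cd9 is more frequent in neutrophils than in macrophages in every library.

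Macrophages with a Trem2 UMI were compared with those without one at equal depth. Apoe was higher in Trem2-positive cells of 4 of 4 libraries, by 0.18 to 0.28 on the log2 scale, beside 0.02 to 0.13 for C1qa. Fabp5 was higher by 0.11 to 0.61, Spp1 by 0.09 to 0.52 and Gpnmb by 0.03 to 1.18, each in 4 of 4 libraries. Lpl, Fabp4, Cd9 and Lgals3 were higher in 2 libraries and lower in 2. With Trem2-positive cells set at 2 or more UMIs, Gpnmb was higher by 0.60 to 1.28, Fabp5 by 0.20 to 0.93, Spp1 by 0.19 to 0.79 and Apoe by 0.23 to 0.39, each in 4 of 4 libraries, beside 0.05 to 0.15 for C1qa. Gpnmb rests there on 10 to 26 UMIs per library. Without thinning Apoe and Fabp5 were higher in 4 of 4 libraries, but Gpnmb, at -0.08 to 1.89, and Spp1, at -0.17 to 0.76, in 3 of 4, while Lgals3 was higher in 4 of 4 and Lpl lower in 4 of 4. These differences were not tested, and the share of all genes higher in 4 of 4 libraries was not counted for this split. Over thinned macrophages the rank correlation of Trem2 with Apoe was 0.09 to 0.15 in the 4 libraries and that of Fabp5 with Lgals3 0.08 to 0.28, the pairs with the highest medians among the 9 genes. These weak values describe sparse counts and are no finding.

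Genes with the most similar pattern over the 20 sums of library and gate were listed by Pearson r of log2(CPM + 1), among 8727 genes of at least 10 CPM on average. Trem2 was most like Dab2 (0.99), Frmd4b (0.99) and Rab3il1 (0.98), and Apoe most like Man1c1 (0.99), Rnase4 (0.98) and Selenop (0.98). Gpnmb was most like Ctsl, a lysosomal protease (0.83), Kxd1 (0.82) and Chchd10 (0.81). Spp1 was most like Cbr1 (0.88), Atxn10 (0.88) and Shisa4 (0.88), and Cd9 most like Pdlim2 (0.88), Gadd45a (0.87) and Fas (0.87). Lgals3 was nearest to Tfec (0.89), Gyg (0.89) and BC028528 (0.89), and Fabp5 to Smim15 (0.93), St6galnac4 (0.92) and Aph1c (0.92). Lpl was nearest to Plxdc2 (0.89), Cd180 (0.88) and Batf3 (0.86), and Fabp4 to Mrpl15 (0.85), Mt2 (0.78) and Mrpl32 (0.74). The sums share libraries and gates and are not independent points.

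A list of 44 other genes was chosen by role, covering lipid handling, lysosomes, TREM2 signalling, transcription factors and the receptors or ligands of osteopontin and galectin-3, and 43 were tested between gates. With edgeR 0 were called between Arg1-positive and Arg1-negative macrophages in the fit over all gates, where 0.418% of all genes were higher and 0.0456% lower. The list was not read in the fit of both macrophage gates alone, so this count cannot be set beside the calls of that fit. Of the 43 tested, 5 had an unadjusted p under 0.05 in either direction, against 5.1% of all genes. Not called was the scavenger receptor gene Cd36, at 1.37 ± 0.34 with adjusted p = 0.10. Against neutrophils 28 were higher and 11 lower in macrophages, where 35.9% and 38.4% of all genes were. The genes with the highest values were the scavenger receptor gene Msr1, at 4.66 ± 0.32, and the integrin gene Itga9, at 4.61 ± 0.35, and those with the lowest were the monoglyceride lipase gene Mgll, at -4.35 ± 0.44, and the adaptor gene Hcst, at -2.34 ± 0.19. Against cancer cells, where 34.8% of all genes were higher and 38.6% lower, 32 were higher, led by Msr1 (6.74 ± 0.34) and the cholesterol exporter Abca1 (6.61 ± 0.27), and 6 lower, led by the lipoprotein receptor Vldlr (-4.04 ± 0.18) and Itgb3 (-2.33 ± 0.31). Against monocytes, where 5.84% of all genes were higher and 4.17% lower, 10 were higher, led by Itga9 (2.60 ± 0.63) and the lysosomal tetraspanin Cd63 (2.20 ± 0.24), and 3 lower, led by Vldlr (-2.53 ± 0.60).

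The comparison of OE-MLKL with OE-Vector asks whether the set differed with the label in each gate. It left 2 residual degrees of freedom, all from OE-MLKL, so OE-Vector 1 is assumed to vary like those libraries. With edgeR 0 of 9 genes were called in any of the 5 gates. Without adjustment, 4 had p under 0.05 in Arg1-positive macrophages, where 6.53% of all genes had, 0 in Arg1-negative macrophages (4.92%), 4 in monocytes (8.29%), 6 in neutrophils (7.84%) and 2 in cancer cells (4.69%). DESeq2 called Fabp4 in Arg1-positive macrophages, with 0.552% of all genes, and Cd9, Fabp5 and Spp1 in neutrophils, with 0.67% of all genes, and limma-voom called 0 of the 9. Over all genes the share called by edgeR was 0.0454% in Arg1-positive macrophages, 0% in Arg1-negative macrophages and in neutrophils, 1.99% in monocytes and 0.00594% in cancer cells.

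In Arg1-positive macrophages 5 of 9 genes were lower in all OE-MLKL libraries than in OE-Vector 1, against 18.1% of all genes, and 1 was higher, against 34.8%. Fabp4 was 31.9 CPM in OE-Vector 1 and 7.40 ± 1.78 CPM in OE-MLKL (mean ± SD, n = 3), a log2 fold change of -2.22 ± 0.34 with adjusted p = 0.18. Lpl was 48.2 CPM in OE-Vector 1, and OE-MLKL 1, 2 and 3 had 2.58, 14.7 and 26.8 CPM, at -1.84 ± 0.75. Fabp5 was 962 CPM in OE-Vector 1, and OE-MLKL 1, 2 and 3 had 603, 445 and 229 CPM, at -1.25 ± 0.52. Both fatty acid-binding proteins and the lipase thus had their highest value in the OE-Vector library, as had Spp1, at -0.65 ± 0.32, and Cd9, at -0.79 ± 0.30. Apoe was the gene higher in all OE-MLKL libraries, with 16517 CPM against 21563 ± 1863 CPM, at 0.29 ± 0.50. Gpnmb, Lgals3 and Trem2 were at 0.52 ± 0.66, -0.54 ± 0.55 and -0.11 ± 0.33. Arg1, which sets this gate, was also highest in OE-Vector 1, at 1994 CPM against 1156, 1476 and 1417 CPM in OE-MLKL 1, 2 and 3. Near-empty barcodes had the same library highest, with Fabp5 at 180 CPM in OE-Vector 1 and 70.0 to 90.5 CPM in OE-MLKL, Lpl at 9.54 CPM and 1.32 to 6.50 CPM, and Fabp4 at 26.1 CPM and 11.1 to 22.6 CPM. Median depth in this gate was also highest in OE-Vector 1, at 8976.5 UMIs against 4717, 5189 and 7449, and the part of Arg1, free RNA or depth in these values was not tested.

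In Arg1-negative macrophages 2 genes were lower in all OE-MLKL libraries, against 23.2% of all genes, and 2 higher, against 28.9%. Lpl was 64.7 CPM in OE-Vector 1, and OE-MLKL 1, 2 and 3 had 3.47, 10.5 and 37.6 CPM, and Cd9 90.2 CPM against 48.0, 49.3 and 70.9 CPM. Lpl had the same order of libraries in both macrophage gates, and its lowest values, in OE-MLKL 1, rest on 17 UMIs in Arg1-positive and 16 in Arg1-negative macrophages, 7 of the latter from 1 cell. Apoe was 15919 CPM against 27835 ± 5434 CPM and Trem2 394 CPM against 515 ± 91.1 CPM. The log2 fold changes of the others were 1.86 ± 1.10 for Gpnmb, 0.47 ± 1.18 for Fabp4, 0.06 ± 0.74 for Fabp5, -0.06 ± 0.41 for Spp1 and -0.16 ± 0.62 for Lgals3. None of the 9 genes passed the test, with adjusted p of 0.90 or above.

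In neutrophils 6 genes were lower in all OE-MLKL libraries, against 16.7% of all genes, and 1 higher, against 41.3%. Cd9 was 1420 CPM in OE-Vector 1 and 373 ± 147 CPM in OE-MLKL, a log2 fold change of -2.16 ± 0.42 with adjusted p = 0.58. Fabp5 was 251 CPM against 76.1 ± 33.3 CPM (-1.96 ± 0.44) and Spp1 555 CPM against 207 ± 70.5 CPM (-1.66 ± 0.39), and Lpl, Fabp4 and Lgals3 were lower as well. Apoe was the gene higher in all OE-MLKL libraries, at 895 CPM against 1734 ± 184 CPM. Trem2 and Gpnmb were at -0.34 ± 0.62 and -0.28 ± 0.51. Spp1 and Cd9 were also lower in all OE-MLKL libraries in T or NK cells, with Spp1 at 161 CPM against 94.99 ± 25.1 CPM and Cd9 at 66.7 CPM against 37.6 ± 3.81 CPM. In near-empty barcodes Spp1 was 1635 CPM in OE-Vector 1 and 897 to 1025 CPM in OE-MLKL, and Cd9 355 CPM and 243 to 331 CPM. T or NK cells and free RNA thus had OE-Vector 1 highest too, and their part in the neutrophil values was not tested.

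In cancer cells 4 genes were lower in all OE-MLKL libraries, against 17.8% of all genes, and 0 higher, against 31.8%. Spp1 was 2473 CPM in OE-Vector 1 and 1335 ± 77.2 CPM in OE-MLKL, a log2 fold change of -0.99 ± 0.36 with adjusted p = 0.998. Fabp4 was 24.1 CPM against 10.3 ± 3.62 CPM (-1.28 ± 0.47), Fabp5 7.93 CPM against 4.88, 5.28 and 6.70 CPM (-0.61 ± 0.35), and Lpl was under 1 CPM in every library (-1.34 ± 0.79). In OE-MLKL 2, 162 of the 415 Fabp5 UMIs came from 1 cancer cell. Trem2, Apoe, Cd9 and Lgals3 were at 0.10 ± 0.51, 0.18 ± 0.41, -0.30 ± 0.47 and 0.96 ± 0.70. Gpnmb was 15.98 CPM in OE-Vector 1, and OE-MLKL 1, 2 and 3 had 61.6, 24.3 and 14.5 CPM, so the groups overlapped. The cancer gate itself differed between labels, with a median of 38.8 marker UMIs per 10000 in OE-Vector 1 and 19.0 to 28.7 in OE-MLKL, and a median depth of 25024.5 UMIs against 11331 to 20046.5. The part of these in the values of cancer cells was not tested. In monocytes 2 genes were lower in all OE-MLKL libraries, against 20.1% of all genes, and 1 higher, against 24.3%. These were Cd9 and Lgals3, and Trem2, which was 97.2 CPM against 139 ± 42.2 CPM. The estimates for Fabp4 (4.95 ± 1.497) and Lpl (3.74 ± 1.77) in monocytes rest on libraries with 0 to 44 UMIs. Gpnmb, Apoe, Fabp5 and Spp1 in monocytes were at 2.53 ± 0.97, 0.11 ± 0.72, -0.05 ± 0.75 and -0.63 ± 0.58. Gpnmb was highest in OE-MLKL 1, at 212 CPM against 15.3 CPM in OE-Vector 1, and most of its UMIs there came from a single cell. Fabp5 was 0 CPM in OE-MLKL 3 and 298 CPM in OE-MLKL 2, where a single cell held most of its UMIs. Of the list of 44 genes, 29 were tested in monocytes and 1, the lipid droplet gene Plin2, was called, at -2.24 ± 0.50 with adjusted p = 0.0087, where 1.99% of all genes were. In the 4 other gates 42 to 44 were tested and 0 called by edgeR. Of those tested, 4 to 7 per gate had an unadjusted p under 0.05, against 4.69% to 7.84% of all genes. The monocyte gate itself differed between labels, with a median of 81.5 marker UMIs per 10000 in OE-Vector 1 and 19.6 to 36.4 in OE-MLKL, Ly6c2 at 1279 CPM against 544 ± 199 CPM and Arg1 at 1596 CPM against 180 ± 122 CPM. The part of these in the values of monocytes was not tested.

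**Figure D5:**
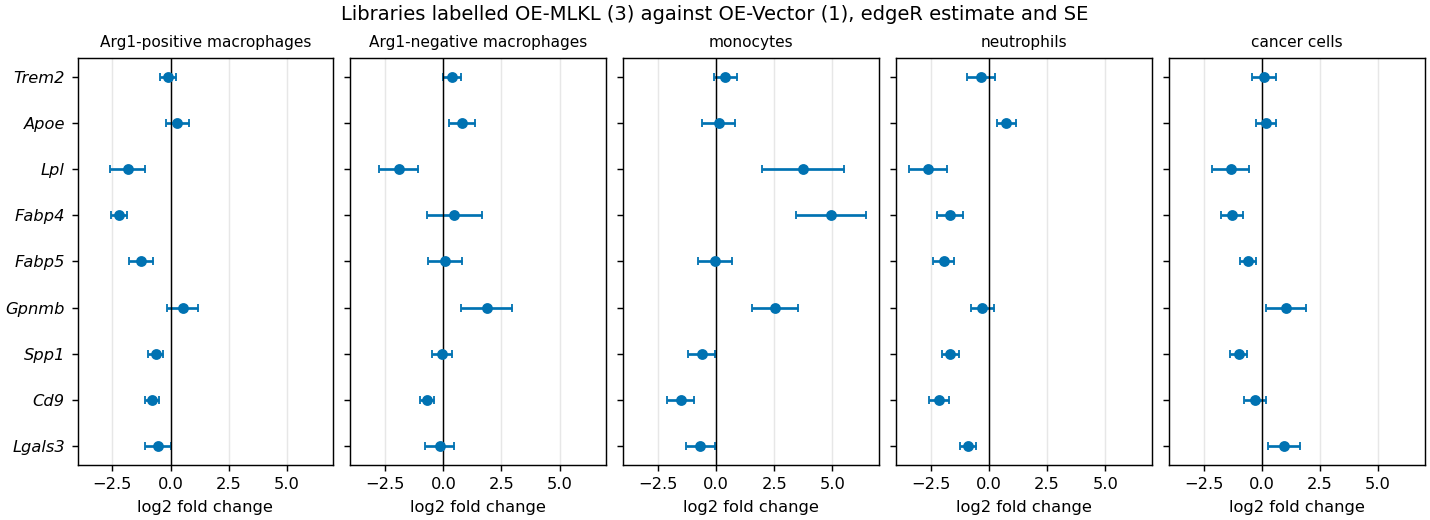
The panels give the edgeR log2 fold change of the libraries labelled OE-MLKL (3) against OE-Vector (1) for each gene in 5 gates, with bars of 1 SE. Lpl, Fabp4, Fabp5, Spp1 and Cd9 lie below 0 in Arg1-positive macrophages, neutrophils and cancer cells, and none of the 9 genes passed the adjusted threshold in any gate.

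Whether the label difference itself differed between the macrophage gates was tested as an interaction. Of 9 genes, 2 were called lower, against 0.0790% of all genes, and 0 higher, against 0.0395%. In the same fit 7 of the 9 had an unadjusted p under 0.05, against 7.71% of all genes. Fabp5 had a difference of -1.16 ± 0.20 (adjusted p = 0.043), from 962 against 271 CPM in Arg1-positive and Arg1-negative macrophages of OE-Vector 1 to 603 against 466, 445 against 278 and 229 against 99.3 CPM in OE-MLKL 1, 2 and 3. Apoe had a difference of -0.48 ± 0.08 (adjusted p = 0.035). Thus the lead of Fabp5 in Arg1-positive cells was smaller in the OE-MLKL libraries. With Arg1 read at unequal depth, Apoe in Arg1-positive cells was below Arg1-negative cells in OE-MLKL and level with them in OE-Vector 1. At equal depth Apoe was lower with Arg1 in OE-Vector 1 too. It had 14039 CPM there for 2 or more Arg1 UMIs, against 17618 CPM for 0. Each call was kept in 6 of 11 alternatives. The adjusted p was 0.077 for Fabp5 and 0.060 for Apoe without OE-MLKL 2, and 0.53 and 0.059 with DESeq2. With Arg1 read at equal depth it was 0.10 and 0.31, with Arg1-positive cells set at 2 UMIs 0.091 and 0.056, and with scaling by library size 0.17 and 0.22. Of the list of 44 genes, 42 were tested, 13 had an unadjusted p under 0.05, and 1, the lysosomal protease gene Ctsl, was called, at -1.07 ± 0.14 (adjusted p = 0.0069). The remaining 7 genes were not called, with Fabp4 at -2.52 ± 0.67, Gpnmb at -1.20 ± 0.44, Spp1 at -0.53 ± 0.17, Trem2 at -0.46 ± 0.11, Lgals3 at -0.33 ± 0.11, Cd9 at -0.06 ± 0.14 and Lpl at 0.05 ± 0.24.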

How the data were processed

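The authors deposited raw, unfiltered UMI counts per gene and barcode, aligned to mm10 and not normalised. Cell Ranger is given as 2.1.1 in the submitters' processing notes, as another version in the methods of the study and as yet another in the file headers. It is not known if intronic reads were counted. Cells had at least 500 UMIs, more than 200 genes, under 10% mitochondrial and at most 5% haemoglobin UMIs, and 11363 cells with the highest simulated-doublet scores were removed. Gates were set on markers per 10000 UMIs (at least 40 for macrophages, 60 for neutrophils, 8 for cancer cells, 10 for monocytes and 30 for T or NK cells, with limits on other classes), after the score distributions had been seen.

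UMIs were summed per library and gate and tested with edgeR 4.0.16 (quasi-likelihood, TMM, filterByExpr, Benjamini-Hochberg over all genes tested at 0.05), with DESeq2 1.42.0 and limma 3.58.1 as alternatives. The SE is the log2 fold change over the square root of F. An exact permutation test of 1 against 3 libraries cannot give p below 0.25 and was not used. The fits were checked on simulated counts. Alternatives were other gate, depth, doublet and Arg1 settings, no filter on low counts, scaling by library size, no library term, and each library left out, and a fit of both macrophage gates alone was added after the data had been seen. The rule for naming genes took the 9 genes and, of a list of 44 others chosen by role, the 2 called with the largest change in each direction. Some genes that these rules name are not reported here. The genes, lists and tests were chosen with earlier results of these data known. Near-identical copies were sought with BLAST 2.17.0 in GENCODE M21 transcripts.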

Additional observations from a re-analysis of the deposited data

Results flagged for a closer look

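The label difference between the macrophage gates passed the test of the difference itself for 2 genes. For Apoe, which carries lipid out of cells, the log2 difference between OE-MLKL and OE-Vector was smaller in Arg1-positive than in Arg1-negative macrophages by -0.479. Arg1-positive cells were above Arg1-negative cells by 0.05 in OE-Vector 1 and below them by 0.53, 0.33 and 0.20 in OE-MLKL 1, 2 and 3, on the log2 scale. For Fabp5, a cytosolic fatty acid-binding protein, the difference was -1.16, from a lead of 1.83 in OE-Vector 1 to leads of 0.37, 0.68 and 1.21 in OE-MLKL 1, 2 and 3. Each of these calls was kept in 6 of 11 alternatives and lost with DESeq2, scaling by library size, Arg1 read after thinning, Arg1-positive cells set at 2 UMIs, and without OE-MLKL 2. OE-Vector is a single library of 436 Arg1-negative macrophages, and label and library cannot be told apart. Median depth of Arg1-positive macrophages was also highest there, at 8976.5 UMIs against 4717, 5189 and 7449 in OE-MLKL 1, 2 and 3, and its part was not tested. At equal depth Apoe in OE-Vector 1 was lower with Arg1 too, at 14039 CPM for 2 or more Arg1 UMIs against 17618 CPM for 0.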

How the results depend on the processing

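No paired analysis was possible because count matrices of only 1 OE-Vector library were analysed, so the groups share fewer than 2 replicate numbers. Counts are of the 9 genes called. They are given without the share of all genes called in the same fit, so they cannot show whether these genes were called in excess. Shares of all genes stand with the main fits above, and counts over all genes follow for some alternatives. Arg1-positive against Arg1-negative macrophages called 1 gene, 6 with the macrophage gates alone, 2 with every marker cut of the gates doubled (the share doubled), 3 with no filter and 0 with no library term, and 0 to 2 without 1 library. The label in Arg1-positive macrophages called 0, 1 with DESeq2, with no filter or with Arg1 read after thinning, and 0 to 3 without 1 library. It called 0 to 2 in Arg1-negative macrophages and 0 to 1 in cancer cells without 1 library. In monocytes it called 0, 1 with no filter, 2 with scaling by library size and 0 to 3 without 1 library, and in neutrophils 0, 3 with DESeq2 and 0 to 4 without 1 library. The difference between macrophage gates called 2, 0 with DESeq2, scaling by library size, Arg1 read after thinning or at 2 UMIs, 6 with no filter, and 0 to 7 without 1 library (7 without OE-MLKL 3, 0 without OE-MLKL 2).

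Over all genes, Arg1-positive against Arg1-negative macrophages called 61 genes and 9 to 881 under alternatives (881 with the macrophage gates alone, 9 with no library term), and macrophages against monocytes 1316, but 871 with no library term and 747 without OE-MLKL 2. The label called 6 genes in Arg1-positive macrophages (73 with DESeq2, 3 with limma-voom, 109 with no filter, 574 without OE-MLKL 3), 0 in Arg1-negative macrophages (8 with DESeq2, 34 with no filter, 233 without OE-MLKL 3), 90 in monocytes (14 with DESeq2, 21 with limma-voom, 149 without OE-MLKL 3), 0 in neutrophils (85 with DESeq2, 1027 without OE-MLKL 3) and 1 in cancer cells (107 with DESeq2, 209 without OE-MLKL 3). The difference between macrophage gates called 15 (6 with DESeq2, 119 with no filter, 201 without OE-MLKL 3).

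Of 1056 single values under alternatives, 34 changed sign, and none of those passed the test there. Leaving out 1 library, the log2 fold change against monocytes ranged for Fabp4 from -3.94 to 2.34, for Gpnmb from -0.77 to 1.08, for Lpl from -1.63 to 2.15 and for Spp1 from -0.087 to 0.79, and against neutrophils for Spp1 from -0.41 to 0.25. By label it ranged in Arg1-negative macrophages for Fabp5 from -0.57 to 0.48, for Lgals3 from -0.58 to 0.21 and for Spp1 from -0.33 to 0.15, and in Arg1-positive macrophages for Gpnmb from -0.10 to 0.90. It ranged in cancer cells for Apoe from -0.096 to 0.33 and for Trem2 from -0.26 to 0.33, in monocytes for Apoe from -0.17 to 0.45 and for Fabp5 from -2.90 to 0.44, and between macrophage gates for Lpl from -0.15 to 0.60. Under other settings, against monocytes Fabp4 turned to 2.33 with the marker share doubled, and Gpnmb to 0.15 with Arg1 read after thinning and 1.54 with the share doubled. Against neutrophils Spp1 turned to 0.27 after thinning and 0.12 by library size. By label, in Arg1-negative macrophages Fabp4 turned to -0.20 after thinning and -0.25 with limma-voom, and Fabp5 to -0.38 and -0.18. In monocytes Apoe turned to -0.099 with limma-voom and -0.047 with no filter, and Fabp5 to 0.26 with the share doubled and 0.0055 by library size. In neutrophils Gpnmb turned to 0.14 with doublets kept. Between macrophage gates Cd9 turned to 0.013 by library size and Lpl to -0.048 with the share doubled. The cause was not tested. Monocytes were a gate of 15 to 88 cells, with 0 to 44 UMIs of Fabp4 and 0 to 16 of Lpl per library.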
